A study of Mus musculus with 4 samples.

Results

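Trem2 Gpnmb macrophages of the mouse liver were taken as cells with at least 5 unique molecular identifiers (UMIs, counted RNA molecules) of C1qa, C1qb and C1qc summed, at least 1 UMI each of Trem2 and Gpnmb, and no UMI of the T-cell gene Cd3e or the B-cell gene Cd79a. Cells also needed at least 500 UMIs and 300 detected genes, with at most 15% mitochondrial UMIs. In all, 289 of 82905 cells met the rule, 0.349% of the cells kept, and 287 of the 289 came from livers with steatohepatitis. They were read against 713 other C1q cells, which met the same C1q, Cd3e and Cd79a limits and had no Gpnmb UMI. The member rule uses measured values, so the levels of its 7 genes describe the choice and are not results.

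Trem2 encodes a receptor on myeloid cells that binds lipids and lipoproteins and signals through the adaptor Tyrobp. Gpnmb encodes a transmembrane glycoprotein of lysosomes and the cell surface that is induced when macrophages take up much lipid or when their lysosomes are strained. Macrophages with both genes gather around fat-laden hepatocytes and scars in fatty liver disease and are commonly called lipid-associated or scar-associated macrophages, and the complement genes C1qa, C1qb and C1qc are made in the liver mostly by macrophages, among them the resident Kupffer cells. Gpnmb lies on chromosome 6 (chr6:49036546-49070929, GRCm38).

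The series is a single-cell survey of the non-parenchymal liver cells of male C57BL/6J mice that were 8 weeks old at the start. Mice were either fed normal chow, or were given a Western diet (cholesterol at 1.25%, sucrose at 41% and fat at 21.1%), sugar in their water and, each week, a low dose of carbon tetrachloride (CCl4) into the peritoneum, a model of metabolic dysfunction-associated steatohepatitis (MASH) with fibrosis. Livers were taken at 12 or 24 weeks, kept on ice overnight, digested with collagenase and DNase, enriched for non-parenchymal cells on Percoll and cleared of red cells. Each of the 4 groups was 1 droplet library sequenced from the 5′ end, in which cells carried antibody hashtags that marked where they came from. The labels do not tie hashtags to animals, so each group is 1 sample: no test between groups was possible, and every interval below is a 95% interval for counting error alone. Diet, sugar water and CCl4 always went together and cannot be told apart.

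After filtering, the 12-week libraries held 18436 chow cells (median 2096 UMIs) and 17225 MASH cells (3304 UMIs). The 24-week libraries held 27291 chow cells (2356 UMIs) and 19953 MASH cells (3464 UMIs). The 12-week MASH library was processed with another Cell Ranger version (4) than the other 3 (5.0.1), and it carried hashtags 4 to 6 while the 12-week chow library carried hashtags 1 to 3. Between 507 and 796 barcodes were shared by any pair of libraries, against 501 to 783 expected by chance. Cells with more than 1 hashtag made up 20.4% to 27.8% of a library.

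Members were nearly confined to the 2 MASH libraries. The 12-week chow library had 1 member (0.00542% of cells), and the 12-week MASH library had 101 (0.586%, interval 0.478% to 0.712%). The 24-week chow library had 1 member (0.00366%), and the 24-week MASH library had 186 (0.932%, 0.804% to 1.08%). The share in MASH was 108 times that in chow at 12 weeks (19.0 to 4311) and 254 times at 24 weeks (45.1 to 10102), the wide intervals reflecting 1 chow cell each.

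C1q cells as a whole were also more frequent in MASH, at 2.40% and 2.73% of cells against 0.309% and 0.0879% in chow. Within them, members made up 1 of 57 (1.75%) and 1 of 24 (4.17%) in chow, and 101 of 414 (24.4%, 20.3% to 28.8%) and 186 of 545 (34.1%, 30.2% to 38.3%) in MASH. Against C1q cells the ratio of MASH to chow was therefore 13.9 at 12 weeks (2.44 to 555) and 8.19 at 24 weeks (1.45 to 325). When every cell was thinned to 2000 UMIs, members were 0 of 9729 and 76 of 13170 cells (0.577%) at 12 weeks, and 1 of 16296 and 155 of 15659 cells (0.990%) at 24 weeks.

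The order of the 2 MASH libraries was not the same in every hashtag. Among cells with 1 hashtag, members were 0.917%, 0.338% and 0.592% of the cells of the 3 hashtags at 12 weeks, and between 0.698% and 1.59% over the 8 hashtags at 24 weeks. The highest hashtag at 12 weeks thus lay above the lowest at 24 weeks, and the ranges overlapped. In chow, 10 of 11 hashtags had no member, and the other had 1.

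**Figure D1:**
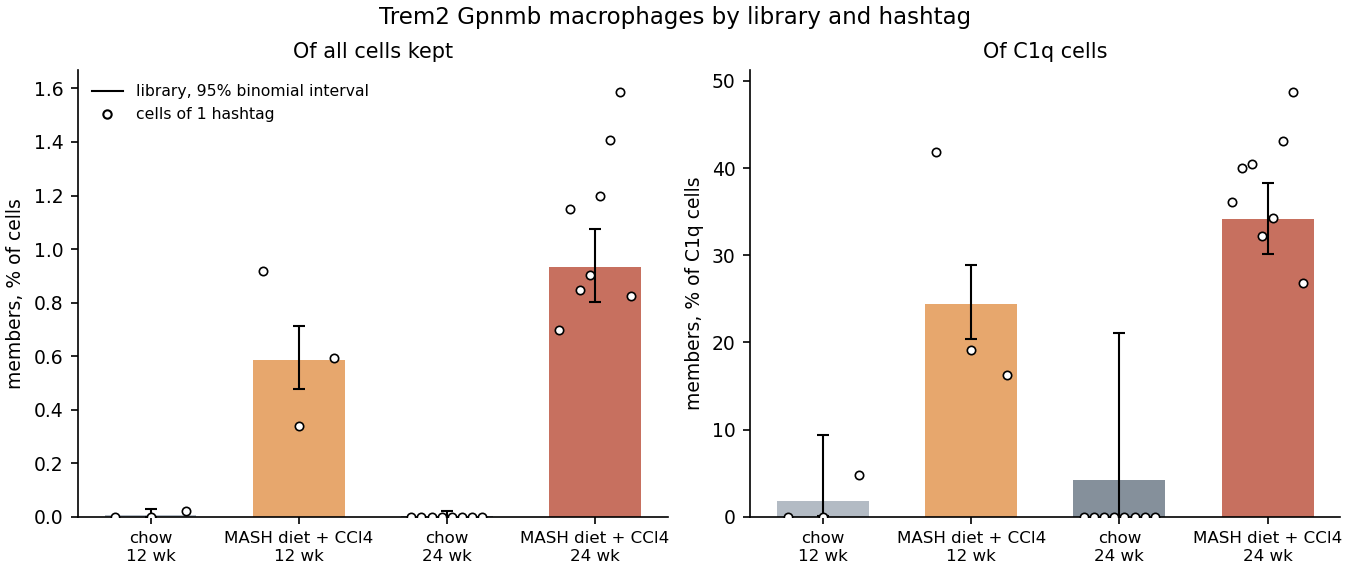
Trem2 Gpnmb macrophages in the 4 libraries, as percent of all cells (left) and of C1q cells (right). Bars are the libraries with their 95% binomial intervals, and open points are the cells of 1 hashtag; the chow bars rest on 1 cell each and the MASH bars on 101 and 186.

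Neither chow member carried an Spp1 or Lpl UMI. The 12-week chow cell had 3462 UMIs with 22 of Gpnmb, 42 of Fabp5, 6 of C1q and 6 of Trem2. The 24-week chow cell had 4767 UMIs with 8 of Gpnmb, 50 of C1q, 6 of Trem2 and 2 of Fabp5, and it carried 2 hashtags. All results that follow come from the 287 MASH members and the 634 other C1q cells of the same livers.

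Some T cells carried UMIs of the genes of the rule. Among T cells, which should lack C1q genes, 5.50% and 8.74% in MASH had at least 5 C1q UMIs, and 1.44% and 3.33% passed all 3 thresholds for C1q, Trem2 and Gpnmb (12 and 24 weeks). In chow T cells the share passing all 3 was 0% and 0.0241%. Median depth was 4839 and 4507 UMIs in MASH T cells and 3406 and 3509 in chow T cells. Of all cells that passed the 3 thresholds in MASH, 92 at 12 weeks (47.7%) and 235 at 24 weeks (55.8%) also had a Cd3e or Cd79a UMI and were left out by the rule.

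Members were deeper cells than their neighbours. Their median was 8192 UMIs at 12 weeks and 10053 at 24 weeks, against 4876.5 and 4943.5 in other C1q cells. The rule asks for molecules of several genes, and the part of depth in the choice was not tested beyond the thinning above. A doublet caller marked 4.95% and 4.84% of members and 6.33% and 5.69% of other C1q cells. More than 1 hashtag was carried by 25.7% and 17.7% of members and by 24% and 25.7% of other C1q cells. At the edge of the rule, 22 and 29 members had a single Gpnmb UMI, and 152 and 172 cells with the rest met had none. A single Trem2 UMI was held by 11 and 14 members, and 13 and 25 cells with the rest met had none.

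The members had the genes that define macrophages. Csf1r, the receptor for the macrophage growth factor, stood at 854 CPM (a gene's count per 1000000 UMIs summed over the cells of a set) in members at 12 weeks and 766 at 24 weeks. Adgre1, which encodes F4/80, stood at 351 and 380 CPM. Cd68, a lysosomal membrane glycoprotein of phagocytes, stood at 905 and 1240 CPM. Summed over 6 macrophage genes the level was 3064 and 3372 CPM, against 2120 and 2075 in other C1q cells.

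Markers of other lineages were present in both sets, and some moved with the comparison. The 4 T-cell genes summed to 94.4 and 34.5 CPM in members and 82.3 and 96.5 in other C1q cells. The 4 neutrophil genes summed to 2298 and 667 CPM in members and 1861 and 1927 in other C1q cells. Of the 937 UMIs of the neutrophil gene S100a8 in members at 12 weeks, 725 lay in 1 cell, and 13 members had any. The 4 stellate-cell genes summed to 228 and 3.63 CPM in members and 1333 and 122 in other C1q cells, and the 5 endothelial genes to 422 and 103 against 757 and 447. Krt19 and Epcam of bile duct cells were at 0 in members at 12 weeks. The part of these cells in the differences was not tested, and each lead result was recomputed in the cells with no UMI of 9 markers of other lineages (65 and 143 members).

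Genes were compared where the pooled level gave at least 10 expected UMIs in both sets, and a gene was called at a ratio of 2 or more, or of 0.5 or less. Of 8132 genes compared at 12 weeks, 240 (2.95%) were at least 2-fold higher in members and 693 (8.52%) at least 2-fold lower. Of 10126 genes at 24 weeks, 238 (2.35%) were higher and 986 (9.74%) lower. The same direction was called at both weeks for 66 higher and 306 lower genes of the 8033 compared at both, and 16 genes were called in opposite directions. The median log2 ratio over all genes was -0.09 and -0.15. Members and other C1q cells were separated by Gpnmb itself, so these ratios describe what the chosen cells look like.

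**Figure D2:**
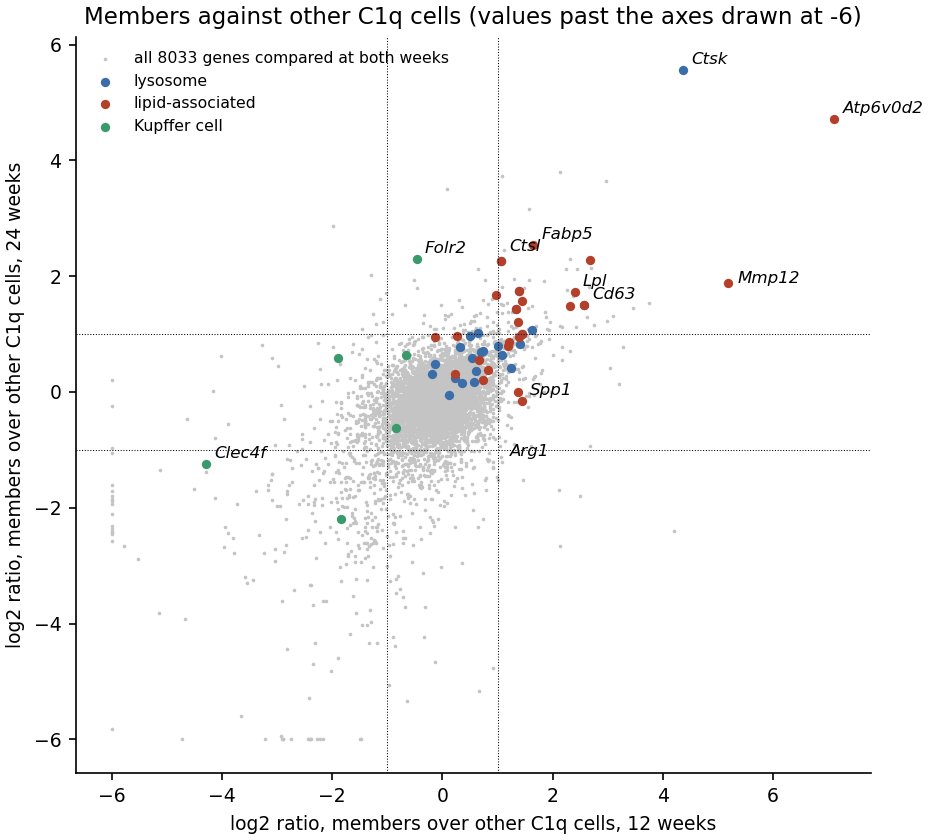
Each point is 1 of the 8033 genes compared at both weeks, placed by its log2 ratio of members over other C1q cells at 12 (x) and 24 weeks (y); values beyond the axes are drawn at the edge. Atp6v0d2, Ctsk, Mmp12, Fabp5, Lpl and Cd63 lie in the upper right, where both ratios are at least 2-fold (dotted lines), and Clec4f lies in the lower left.

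The genes known from lipid-associated macrophages were higher in members as a group. Of a list of 25 such genes, 18 were at least 2-fold higher at 12 weeks and 14 at 24 weeks, none was at least 2-fold lower, and the medians were 1.37 and 1.20 on the log2 scale. In cells without markers of other lineages the medians were 1.28 and 1.43. The list was chosen for cells of this kind, so its direction is no independent evidence.

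Lpl encodes lipoprotein lipase, which releases fatty acids from lipoproteins. Its level was 2040 CPM in members and 387 in other C1q cells at 12 weeks, a ratio of 5.27 (4.83 to 5.75). At 24 weeks it was 2301 and 700 CPM, a ratio of 3.29 (3.11 to 3.49). By hashtag, Lpl ratios at 12 weeks lay between 2.78 and 5.24. Those at 24 weeks lay between 0.922 and 9.19, with 5 of 8 at least 2 and 1 below 1. Monocytes of the same livers stood far lower, at 94.9 and 63.6 CPM. C1q cells with the Kupffer gene Clec4f stood between, at 639 CPM (51 cells) and 1177 CPM (12 cells).

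Fabp5, a carrier of fatty acids in the cytosol, stood at 1666 against 532 CPM at 12 weeks (ratio 3.13, 2.89 to 3.39). At 24 weeks it stood at 1210 against 208 CPM (5.81, 5.26 to 6.44). The ratio was at least 2 in the cells of all 3 hashtags at 12 weeks (2.43 to 9.15) and all 8 at 24 weeks (3.53 to 25.6). Its relative Fabp4 was 1.20 and 1.95 times as high in members as in other C1q cells.

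Cd63, a tetraspanin of late endosomes, was 5.94 times as high in members at 12 weeks (1355 against 228 CPM) and 2.83 times at 24 weeks (1486 against 525 CPM). It was above 1 in 11 of 11 hashtags, from 4.98 to 8.39 at 12 weeks and from 1.60 to 5.54 at 24 weeks. Lgals3, which encodes the carbohydrate-binding galectin-3, stood at 2861 against 575 CPM and 3683 against 1317 CPM. Monocytes had Lgals3 as well, at 2022 and 1988 CPM, so that gene did not set members apart from monocytes as Lpl did. Cd9, another tetraspanin, had ratios of 1.59 and 1.47.

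The fall in several of these ratios from 12 to 24 weeks came with higher levels in the other C1q cells. Mmp12, the elastase of macrophages, was 590 CPM in members and 16.3 in other C1q cells at 12 weeks, a ratio of 36.1 (25.0 to 54.0). At 24 weeks it was 687 and 187 CPM, a ratio of 3.68 (3.29 to 4.11). Its level in members thus differed 1.16-fold between the weeks, while that in other C1q cells differed 11.4-fold. Itgax, the integrin chain CD11c, went the same way, at 174 and 241 CPM in members and 67.5 and 240 CPM in other C1q cells.

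Spp1, which encodes the secreted phosphoprotein osteopontin, did not separate the sets at both weeks. Its level was 1798 CPM in members and 661 in other C1q cells at 12 weeks (ratio 2.72, 2.53 to 2.93), and 1393 and 1553 CPM at 24 weeks (0.897, 0.854 to 0.942). Without cells carrying markers of other lineages the ratios were 9.97 and 3.16. Over the 8 hashtags at 24 weeks the Spp1 ratio ranged from 0.139 to 18.9 and was above 1 in 5. Spp1 RNA was also widespread outside C1q cells: T cells stood at 301 and 697 CPM, and droplets with at most 100 UMIs in the 12-week MASH library, the only one with such droplets, stood at 735 CPM. No Spp1 UMI was found in the 56 and 23 other C1q cells of chow.

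**Figure D3:**
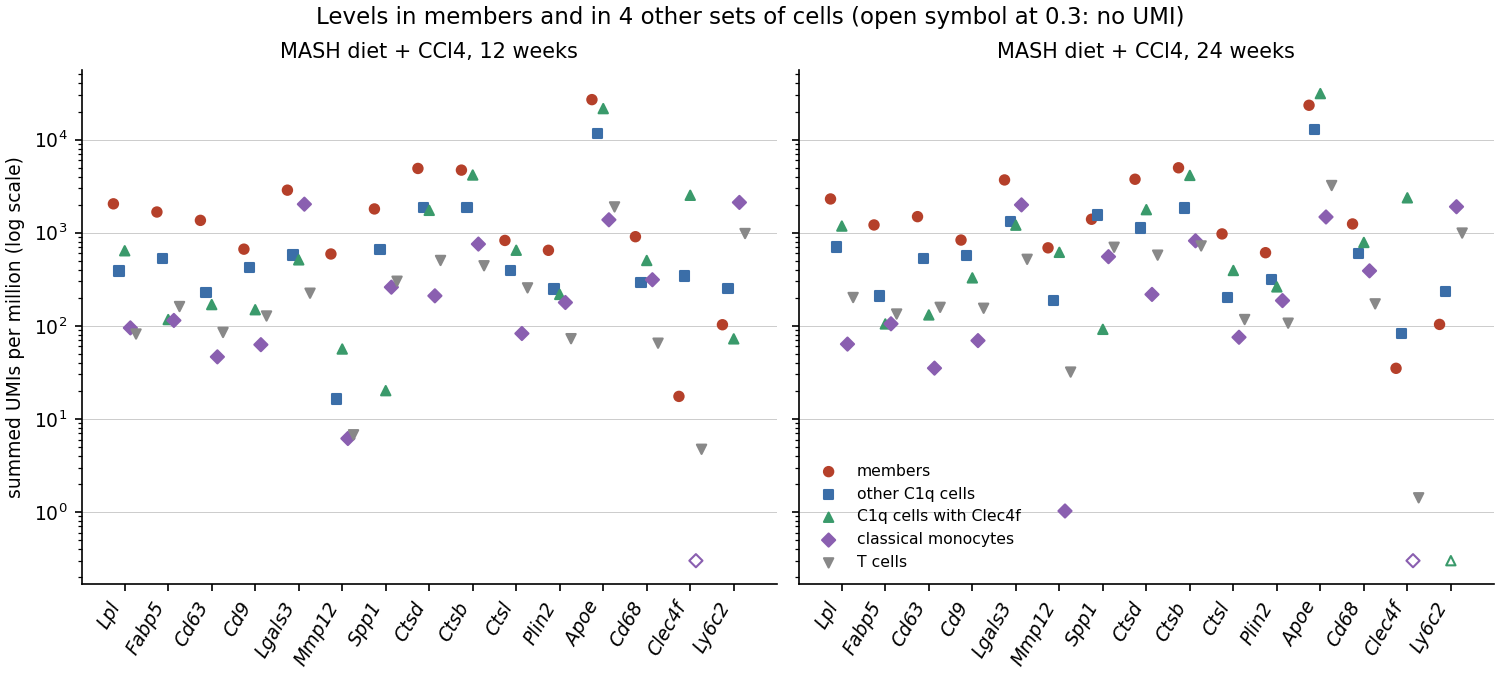
Levels of 15 genes in CPM (log axis) in members, other C1q cells, C1q cells with Clec4f, classical monocytes and T cells of the MASH livers at 12 and 24 weeks; open symbols at the foot of the axis mark a set with no UMI. Lpl, Fabp5 and Cd63 are highest in members at both weeks, Lgals3 is high in monocytes too, and Clec4f is highest in the cells chosen by it. The cells chosen by Clec4f number 51 at 12 weeks and 12 at 24 weeks.

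Spp1 was unevenly spread over members. The 10% of members with the most Spp1 held 88.8% of its UMIs at 12 weeks and 76.8% at 24 weeks, and 46.5% and 64.0% of members had any. T cells had an Spp1 UMI in 6.24% and 16.4%. Ctsb, by contrast, was found in all members, with 35.2% and 36.5% of its UMIs in the top 10%. The median member had 594 CPM of Lpl at 12 weeks and 1640 at 24 weeks.

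Single cells showed the combination as well as the sums. Of the 5 genes Spp1, Fabp5, Cd9, Cd63 and Lpl, at least 3 were detected in 81 of 101 members at 12 weeks (80.2%, 71.1% to 87.5%) and in 176 of 186 at 24 weeks (94.6%, 90.3% to 97.4%). All 5 were detected in 33.7% and 47.3% of members, and 4 members at 12 weeks and none at 24 weeks had no UMI of any. With each cell thinned to 2000 UMIs, at least 3 of the 5 were found in 59.4% and 75.1% of members, 17.6% and 25.6% of other C1q cells and 1.96% and 3.86% of T cells. The thinned shares left out 5 members at each week as too shallow.

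Lysosomal genes were also higher in members as a group, but this list overlaps the lipid-associated list. Ctsd, Ctsb, Ctsl and Lipa were on both, and Atp6v0d2 was on both the lipid-associated and the V-ATPase list. The groups are therefore not separate evidence. Of 24 lysosomal genes, 11 were at least 2-fold higher at 12 weeks and 8 at 24 weeks, none was at least 2-fold lower, and the medians were 0.71 and 0.74 on the log2 scale. Of 16 subunits and partners of the V-ATPase, the proton pump that acidifies lysosomes, 5 and 2 were at least 2-fold higher and none lower, with medians of 0.66 and 0.36. Without cells carrying markers of other lineages the lysosomal medians were 0.56 and 0.71, and the V-ATPase medians 0.59 and 0.38.

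The cathepsins, proteases of the lysosome, were among the higher genes. Ctsd stood at 4893 CPM in members and 1862 in other C1q cells at 12 weeks (ratio 2.63, 2.51 to 2.75), and at 3747 and 1119 CPM at 24 weeks (3.35, 3.20 to 3.50). Ctsb stood at 4696 against 1859 CPM and 4975 against 1839 CPM, with ratios of 2.53 and 2.70. Ctsl had ratios of 2.09 and 4.80, but 1 member held 1034 of its 2137 UMIs at 24 weeks. Ctsd was detected in 98.0% and 100% of members.

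Atp6v0d2 and Ctsk had the largest ratios that held at both weeks. Atp6v0d2, a V-ATPase subunit known from osteoclasts and macrophages, lies on chromosome 4 (chr4:19876841-19922605, GRCm38). It had 147 UMIs in members against 2 in other C1q cells at 12 weeks (150.8 and 1.09 CPM; ratio 138, 37.7 to 1154) and 344 against 13 at 24 weeks (156 and 5.97 CPM; ratio 26.1, 15.1 to 49.6). Ctsk, the collagen-cutting cathepsin of osteoclasts, had 110 against 10 UMIs (ratio 20.7) and 143 against 3 UMIs (47.1, 15.8 to 231). At 12 weeks 1 member held 84 of the 110 Ctsk UMIs. The 12-week ratio was 14.1 with equal weight per cell and 195 without cells carrying markers of other lineages. Atp6v0d2 was detected in 26.7% and 40.3% of members and Ctsk in 12.9% and 16.7%, and the 10% of members with the most Ctsk held 97.3% and 91.6% of its UMIs.

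Other genes with large ratios at both weeks were Vsig8 (7.80 and 12.4), Syngr1 (6.38 and 4.86), Adam8 (6.47 and 4.41), Slco2b1 (5.44 and 4.37), Ksr2 (4.94 at both), Adcy3 (4.71 and 4.37) and Cdk18 (4.40 and 14.0). Adam8 encodes a membrane metalloprotease of leukocytes, Slco2b1 a transporter of organic anions, and Adcy3 an adenylate cyclase. Adam8 had the most UMIs of these, with 182 and 460 in members, and Ksr2 rested on 21 and 45.

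Several lysosomal genes of lipid breakdown and transport had ratios of similar size. Psap, the precursor of the saposins that help degrade sphingolipids, had ratios of 2.66 and 1.78. Lipa, the lysosomal acid lipase that frees cholesterol from its esters, stood at 596 against 221 CPM and 486 against 243 CPM (2.70 and 2.01). Npc1, which moves cholesterol out of the lysosome, had ratios of 2.38 and 1.33. Mcoln1, the lysosomal calcium channel, did not differ beyond counting error (0.873, 0.479 to 1.54, and 1.23, 0.831 to 1.84).

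Many lysosomal genes carry a motif in their promoters that is bound by the factors TFEB, TFE3 and MITF, so the 250 bases before each gene's RefSeq start were searched for TCACGTGA on both strands (the motif is its own reverse complement). RefSeq promoters (GRCm38) were at hand for 17 of the 24 lysosomal and 11 of the 16 V-ATPase genes, and 4 of these 28 held it (14.3%), against 245 of 27025 genes of all promoters (0.907%). Its inner CACGTG, which the longer motif contains, was in 7 of the 28 (25%) and in 6.86% of all promoters. A match describes letters only, and no binding was measured. The 4 sites are shown with up to 11 bases on either side, on the strand of the gene, the motif in capitals, because they are the only matches in the genes of this group.
Ctsd: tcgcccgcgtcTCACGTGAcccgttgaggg
Ctsa: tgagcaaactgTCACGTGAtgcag
Mcoln1: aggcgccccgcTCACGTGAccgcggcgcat
Atp6v1a: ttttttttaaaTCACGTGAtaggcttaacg

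The Ctsd stretch (chr7:142387908-142387937, minus strand) has its motif 99 bases before the RefSeq start, that of Ctsa (chr2:164833749-164833772, plus strand) 13 bases, that of Mcoln1 (chr8:3500462-3500491, plus strand) 46 bases and that of Atp6v1a (chr16:44139373-44139402, minus strand) 132 bases. The GENCODE M21 models of the 4 genes begin further upstream, so that all 4 stretches lie inside them. The first 3 overlap an exon there, and the Atp6v1a stretch overlaps none. The expression of the 4 genes did not go one way: Ctsd had the ratios given above, Ctsa 1.61 and 1.62, Atp6v1a 2.16 and 1.70, and Mcoln1 values that spanned 1. Of the factors themselves, Mitf had ratios of 1.96 and 1.58 (99.5 against 50.7 CPM and 102.5 against 64.8 CPM) and Tfeb 1.67 and 1.44, both under the 2-fold limit, while Tfec had 0.762 and 0.626.

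**Figure D4:**
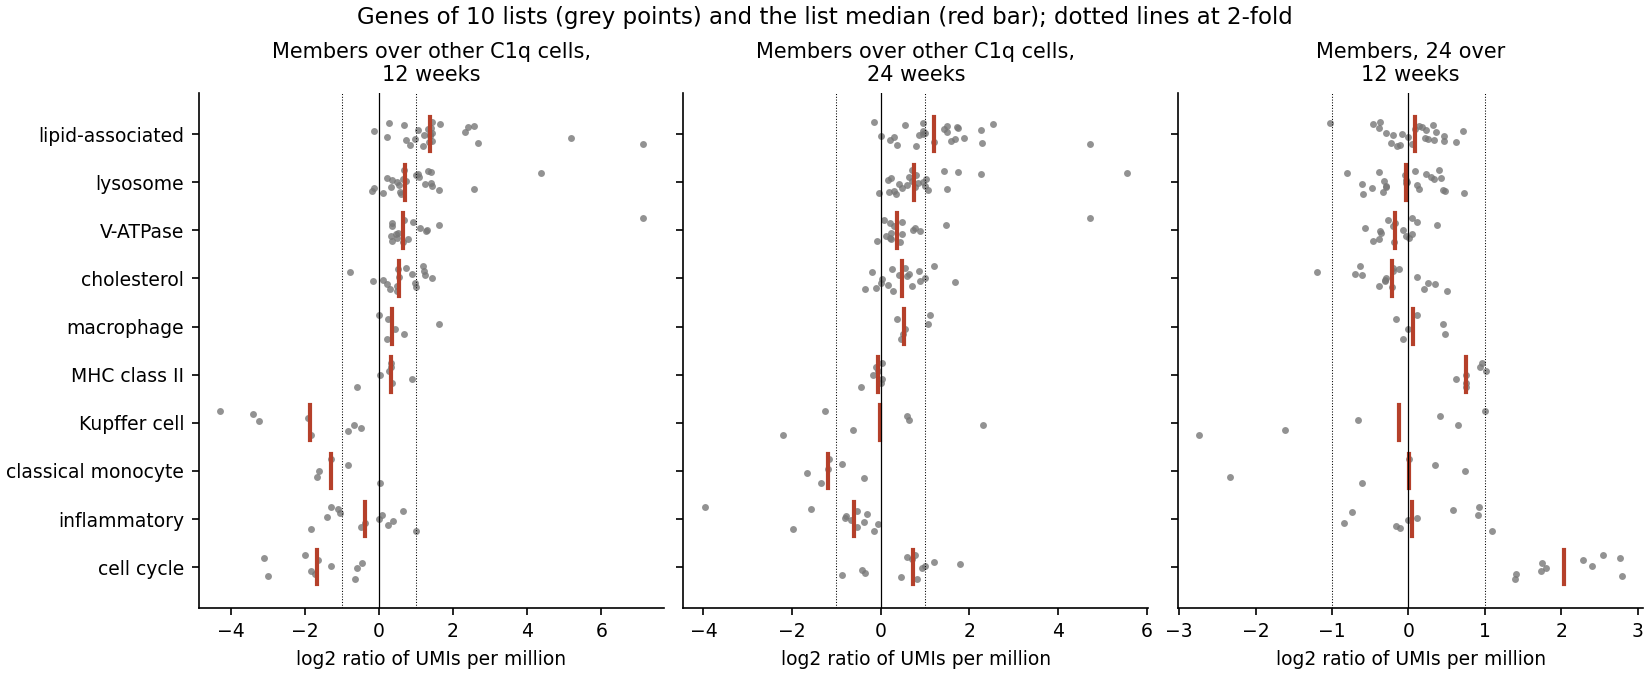
Log2 ratios of the genes of 10 lists (grey points) with the list median (red bar) for members over other C1q cells at 12 and 24 weeks and for members at 24 over 12 weeks; dotted lines mark 2-fold. Lipid-associated genes have medians of 1.37 and 1.20 in the first 2 panels and 0.08 in the third, where the cell-cycle median is 2.04.

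Genes of cholesterol handling were shifted upward by less. Apoe here, and Plin2, Cd36, Ftl1 and Tyrobp in the paragraphs below, were also on the lipid-associated list. Like the lysosomal group, these groups are therefore not separate evidence. Of 17 such genes compared at 12 weeks and 18 at 24 weeks, 4 and 3 were at least 2-fold higher and none lower, with medians of 0.53 and 0.48. Apoe, the apolipoprotein that carries cholesterol out of macrophages, stood at 26835 against 11630 CPM and 23342 against 12872 CPM (2.31 and 1.81), and it was detected in 48.1% and 47.0% of T cells. Abca1, the efflux pump that loads it with cholesterol, stood at 262 against 115 CPM and 168 against 73.0 CPM (2.28 and 2.30).

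Among fatty acid genes, 4 of 14 and 2 of 15 were at least 2-fold higher, with medians of 0.28 and 0.24. Plin2, which coats lipid droplets, stood at 646 against 248 CPM and 609 against 315 CPM (2.61 and 1.94). Cd36, a scavenger receptor for oxidized lipoproteins, had ratios of 1.96 and 3.19. Pparg, the nuclear receptor for fatty acids, stood at 46.2 against 13.6 CPM and 55.8 against 31.2 CPM (3.39, 2.04 to 5.77, and 1.79, 1.32 to 2.44). Cpt1a, which admits fatty acids to mitochondria for burning, had ratios of 0.906 (0.633 to 1.28) and 0.808 (0.605 to 1.08).

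Of 11 iron and redox genes, 3 were at least 2-fold higher at 12 weeks and none lower, with a median of 0.81. At 24 weeks none of 11 was at least 2-fold higher and 1 was lower, with a median of -0.15. Ftl1, the ferritin light chain, had ratios of 2.28 and 1.73, and Prdx1, a peroxidase, 2.14 and 1.79.

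Genes of resident Kupffer cells were mostly lower in members at 12 weeks. Of 8 Kupffer genes compared, 5 were at least 2-fold lower and none higher, with a median of -1.87 on the log2 scale. Clec4f, a lectin that marks mouse Kupffer cells, stood at 17.4 CPM in members and 342 in other C1q cells (0.0511, 0.0296 to 0.0824), and 6 of 101 members had a UMI of it. Timd4, a receptor of embryo-derived Kupffer cells, had 2 UMIs in all members and Marco, a scavenger receptor, had 4.

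At 24 weeks the Kupffer genes no longer set members apart as a list. Of 6 that could be compared, 1 was higher and 2 lower, with a median of -0.02, and Timd4 and Marco had no UMI in either set. In other C1q cells, all 8 Kupffer genes were at least 2-fold lower at 24 than at 12 weeks, with a median of -2.10, where 5.79% of all 10155 genes compared were lower and 5.32% higher. Clec4f stood there at 83.1 CPM, against 34.9 in members. Of the 77 Clec4f UMIs of members at 24 weeks, 76 lay in 1 cell. Vsig4, a complement receptor, stood at 40.0 against 150 CPM at 12 weeks and 53.1 against 35.4 at 24 weeks. Folr2, a folate receptor of resident macrophages, had ratios of 0.721 and 4.93, with 179 of its 384 UMIs at 24 weeks in 1 member.

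Monocyte genes were lower in members at both weeks as a list, but UMIs of them were found in many members. Of 5 and 6 such genes compared, 3 and 4 were at least 2-fold lower, with medians of -1.28 and -1.18. Without cells carrying markers of other lineages the medians were -0.60 and -1.75. With equal weight per cell the 12-week median was -0.59. Ly6c2, the surface marker of classical monocytes, stood at 103 against 250 CPM at 12 weeks (0.410, 0.327 to 0.511) and 103 against 233 CPM at 24 weeks (0.444, 0.378 to 0.520). Ccr2, the receptor that brings monocytes to tissue, had ratios of 0.564 and 0.550. A UMI of Ly6c2 or Ccr2 was found in 46.5% and 45.2% of members and 41.7% and 53.6% of other C1q cells. Thinned to 2000 UMIs, these shares were 28.1% and 23.2% in members and 33.1% and 41.6% in other C1q cells. A UMI of Clec4f, Timd4, Vsig4 or Marco was found in 11.9% and 8.60% of members and 22.7% and 4.79% of other C1q cells. Both kinds were found in 2.97% and 3.23% of members. T cells express Ly6c2 themselves, so they give no background for the shares with Ly6c2 or Ccr2. For the Kupffer genes, thinned to 2000 UMIs, the shares were 6.25% and 4.97% in members and 16.7% and 4.27% in other C1q cells. In T cells they were 0.907% and 0.326%.

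Inflammatory genes were more often lower than higher. Of 13 and 12 compared, 5 and 3 were at least 2-fold lower and 1 and 0 higher, with medians of -0.37 and -0.61. Over all genes compared, 8.52% and 9.74% were at least 2-fold lower. Against other C1q cells that also had no Trem2 UMI, the 12-week median was 0.18. The 24-week median lay between -0.88 and -0.46 over all alternatives. Il1b, the cytokine interleukin-1 beta, stood at 47.2 against 101 CPM and 89.4 against 266 CPM (0.466 and 0.335). Ptgs2, the enzyme of prostaglandin synthesis, had ratios of 0.283 and 0.255, and Ccl2, the chemokine for Ccr2, 0.378 and 0.584. Il1rn, the antagonist of the interleukin-1 receptor, was the gene on the higher side at 12 weeks (2.01, 1.31 to 3.07), and it stood at 0.907 at 24 weeks.

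Genes of matrix and repair had no common direction: 3 of 15 were at least 2-fold higher and 2 lower at 12 weeks, and 2 higher and 4 lower at 24 weeks. Fn1, fibronectin, stood at 1572 CPM in members and 4679 in other C1q cells at 12 weeks, and at 391 and 571 CPM at 24 weeks (0.336 and 0.686). Igf1, insulin-like growth factor 1, stood at 385 against 224 CPM and 299 against 78.5 CPM (1.71 and 3.81). Thbs1, thrombospondin 1, had ratios of 0.478 and 0.336. Tgfb1 and Pdgfb, growth factors that act on stellate cells, were near 1 at both weeks (1.11 and 1.05; 1.30 and 0.988).

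Most signalling genes around Trem2 lay near 1. Tyrobp, the adaptor of Trem2, had ratios of 1.17 and 1.24, and Syk, the kinase that acts after it, 1.00 and 0.876. Sirpa, the receptor for the don't-eat-me signal CD47, had 2.25 and 1.77. Mertk, a receptor for dying cells, had 1.36 and 1.47, while its ligand Gas6 was lower, at 32.8 against 100.2 CPM and 34.5 against 156 CPM (0.328 and 0.221).

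Plaur, the gene of the urokinase receptor uPAR, had pooled ratios whose intervals held 1, while hashtags differed. It stood at 108 CPM in members and 120 in other C1q cells at 12 weeks (0.895, 0.703 to 1.13) and at 89.8 and 89.1 CPM at 24 weeks (1.01, 0.823 to 1.24). At 12 weeks the ratio was 2.55 (1.43 to 4.85) in hashtag 4, 0.240 (0.0628 to 0.659) in hashtag 5 and 0.785 (0.479 to 1.23) in hashtag 6, and at 24 weeks it ranged from 0.520 to 2.45 over the 8 hashtags. A Plaur UMI was found in 36.6% and 44.1% of members, and, thinned to 2000 UMIs, in 14.6% and 12.7% of members, 18.4% and 10.7% of other C1q cells and 3.41% and 4.03% of T cells. Its ligand urokinase, Plau, was higher in members at both weeks (47.2 against 23.4 CPM, 2.02, 1.30 to 3.13; 66.2 against 31.7 CPM, 2.09, 1.56 to 2.82). Serpinb2, an inhibitor of urokinase, was lower (0.205 and 0.420).

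Genes lowest in members relative to other C1q cells at both weeks included Dcn, Gpc3 and Gas1. Dcn, the matrix protein decorin of stellate cells, stood at 71.8 against 549 CPM and 1.81 against 112 CPM. Gpc3 had no UMI in members at 12 weeks against 30 in other C1q cells, which makes it at least 5.31-fold lower against a floor of 3 UMIs, and 1 against 56 at 24 weeks. Gas1 had 5 against 88 UMIs, then 0 against 34, at least 11.5-fold lower. A Dcn UMI was found in 6% and 3.59% of other C1q cells, Gpc3 in 1.33% and 1.20%, and Gas1 in 2.33% and 0.898%. These ratios thus rest on few of the other C1q cells. Without cells carrying markers of other lineages Dcn had a ratio of 1.25 at 12 weeks.

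Lipid and lysosomal genes of members stood at similar levels at both weeks. Of 7705 genes compared in members, 300 (3.89%) were at least 2-fold higher at 24 than at 12 weeks and 365 (4.74%) lower, with an overall median of -0.04. Of the 25 lipid-associated genes none was at least 2-fold higher and 1 lower (Fabp4, 692 and 340 CPM), with a median of 0.08. Of 24 lysosomal and 16 V-ATPase genes none was called in either direction, with medians of -0.03 and -0.18. Lpl was 1.13 times, Cd63 1.10 times and Fabp5 0.726 times as high at 24 weeks.

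Cell-cycle genes differed between the weeks as a group. All 10 that could be compared were at least 2-fold higher in members at 24 weeks, with a median of 2.04. Mki67, the proliferation marker Ki-67, stood at 16.4 CPM at 12 weeks and 96.2 at 24 weeks (5.86, 3.52 to 10.4), and 7 of 101 and 30 of 186 members had a UMI (6.93% and 16.1%). Top2a, the topoisomerase of dividing cells, was 6.82 times as high (3.20 to 17.4). The sum over 12 cell-cycle genes was 154 and 626 CPM in members and 406 and 390 CPM in other C1q cells, in which none of 12 was called.

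Depth and lineage markers bear on that difference as follows. Thinned to 2000 UMIs, the share of members with Mki67 was 3.12% and 6.63%, beside 3.99% and 3.77% of T cells and 4.60% and 3.91% of other C1q cells. The cell-cycle median in members between the weeks was 2.56 without cells carrying markers of other lineages and 1.74 after thinning. Against other C1q cells of the same week, the 24-week cell-cycle median was 0.74 in all members and -0.11 without those cells.

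Among antigen presentation genes, fewer passed the 2-fold limit in members than in other C1q cells. H2-Aa, a chain of MHC class II, stood at 4018 and 7798 CPM in members and 3196 and 7611 CPM in other C1q cells. Its ratio in members was 1.94, just under the limit. By hashtag, H2-Aa in members ranged from 1835 to 8279 CPM at 12 weeks and from 5391 to 11021 CPM at 24 weeks, so the ranges overlapped. Of 7 class II genes 1 was at least 2-fold higher in members at 24 weeks (H2-Eb1, 2.02), with a median of 0.76, and 5 were in other C1q cells, with a median of 1.25. Over all genes compared, 3.89% were at least 2-fold higher at 24 weeks in members and 5.32% in other C1q cells. Cxcl9, the interferon-gamma-induced chemokine, had 8 and 126 UMIs in members (8.21 and 57.2 CPM; 6.96, 3.43 to 16.5), in 5 of 101 and 14 of 186 cells. Of 13 immediate-early and heat shock genes, 2 were at least 2-fold higher in members and 4 in other C1q cells, among them the heat shock gene Hspa1a (4.17-fold and 5.56-fold).

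Summed over members, Arg1 and Fn1 were lower at 24 weeks. Arg1, which breaks down arginine in repair-type macrophages, stood at 587 and 165 CPM (0.281, 0.245 to 0.321; 0.653 without cells carrying markers of other lineages), and 21 of 101 and 22 of 186 members had a UMI. By hashtag, Arg1 in members ranged from 0 to 856 CPM at 12 weeks and from 0 to 1166 CPM at 24 weeks, so the ranges overlapped. Fn1 was 0.249 times as high at 24 weeks. An Fn1 UMI was found in 30.7% and 32.3% of members. The 10% of members with the most Fn1 held 90.7% and 81.1% of its UMIs. The largest decreases by size were in genes of other cells: Hbb-bs of red cells had 607 and 4 UMIs in members, Gzma of lymphocytes 163 and 5, and Camp of neutrophil precursors 253 and 2, all of the 253 in 1 member. The part of RNA from such cells in these values was not tested.

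Members also differed among themselves in step with Gpnmb. They were split within each library into 3 groups of near equal size by Gpnmb per UMI (34, 34 and 33 cells, and 62 each). The groups had median depths of 8446, 6788.5 and 9932 UMIs at 12 weeks and 10979.5, 9233.5 and 10883 at 24 weeks, so the high group was not consistently the deepest. Gpnmb chose the groups, and no test was made on them.

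Lpl was higher in each step from low through middle to high Gpnmb, at 768, 1610 and 3569 CPM at 12 weeks and 1303, 1958 and 3646 CPM at 24 weeks. Ctsb went the same way (2460, 3940 and 7386 CPM; 2830, 4513 and 7654 CPM). Of the 25 lipid-associated genes, 17 at 12 weeks and 20 at 24 weeks were higher at each step and none was lower at each step. Over all genes with at least 30 UMIs in members, 16.4% of 4323 and 14.1% of 6806 were higher at each step, and 22.6% and 25.8% were lower. The lysosomal counts were 11 of 23 and 19 of 24, and the V-ATPase counts 11 of 16 and 13 of 16, both including genes of the lipid-associated list. The macrophage genes showed the same steps in 6 of 6 and 5 of 6.

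Other genes went the opposite way or had no order. Fn1 stood at 4160, 430 and 27.9 CPM at 12 weeks and 621, 298 and 215 CPM at 24 weeks. Arg1 stood at 1400, 348 and 8.36 CPM, and 342, 101 and 22.0 CPM. In the low group, 1 member held 266 of the 472 Arg1 UMIs at 12 weeks, and 1 held 168 of 286 at 24 weeks. Spp1 was lowest in the middle group at both weeks (3133, 330 and 1684 CPM at 12 weeks, and 1381, 698 and 1940 CPM at 24 weeks). At 12 weeks 1 member held 739 of the 1056 Spp1 UMIs of the low group, so that level rests largely on 1 cell. None of the 7 class II genes was higher at each step in either library, beside 16.4% and 14.1% of all genes. At 24 weeks 4 of the 7 were lower at each step, and at 12 weeks none was. Among 13 immediate-early and heat shock genes, 11 were lower at each step at 24 weeks and 3 at 12 weeks. Over all genes, 25.8% were lower at each step at 24 weeks and 22.6% at 12 weeks.

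**Figure D5:**
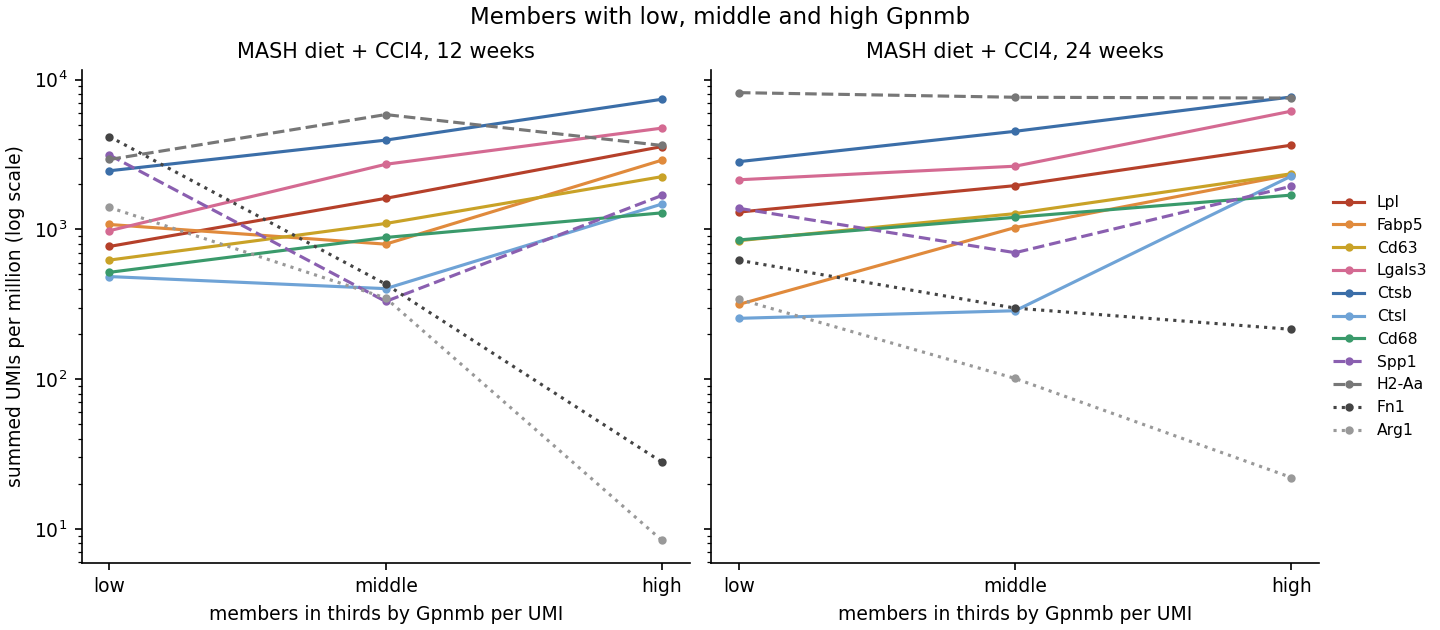
Levels of 11 genes in CPM (log axis) in members with low, middle and high Gpnmb per UMI, at 12 weeks (left) and 24 weeks (right). Lpl, Cd63, Ctsb and Cd68 are higher at each step at both weeks, Fn1 and Arg1 are lower at each step, and Spp1 is lowest in the middle group. In the low group at 12 weeks, 1 member held 739 of 1056 Spp1 UMIs and 1 held 266 of 472 Arg1 UMIs.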

How the data were processed

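The deposited files are gene-by-barcode matrices of UMI counts, which the authors made with Cell Ranger 5.0.1 and, for the 12-week MASH library, Cell Ranger 4, per the submitters' processing notes. Those notes name mm10 and GRCh38. The 12-week MASH matrix holds 737280 barcodes, of which those with at least 500 UMIs were used because its barcode list did not match them. Library totals were 52557786 to 105864367 UMIs after filtering.

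UMI counts were summed over the cells of a set in each library and given as CPM. Ratios carry exact conditional binomial 95% intervals, and shares carry exact (Clopper-Pearson) intervals, which cover counting error only. With 1 library per group there was no test. A ratio against no UMI is given against a floor of 3 UMIs. Doublets were called with Scrublet in scanpy 1.11.5 and from the hashtag counts with a mixture model (scikit-learn 1.9.0), and called cells stayed in the main values. Classical monocytes had at least 2 Ly6c2, 1 Ccr2 and 3 Lyz2 UMIs and none of C1q, Cd3e, Cd79a or Siglech, and T cells had at least 2 Cd3e UMIs and none of Cd79a. Clec4f C1q cells were other C1q cells with a Clec4f UMI. Gene positions come from GENCODE M21. Scripts ran in Python 3.11.15 with numpy 2.4.6, scipy 1.17.1, pandas 2.3.3 and matplotlib 3.10.9, and the comparison was tested on simulated counts. Those counts held known fold changes and counting error alone, so they do not cover UMIs gathered in few cells.

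The members and the 30 gene lists were chosen with earlier results of these data known. Named genes were list genes, the 10 with the largest and the 10 with the smallest of the less extreme ratio over both MASH libraries, and the 10 with the largest and smallest ratio between weeks among called genes whose interval left out 1. The genes of the rule and immunoglobulin, T-cell receptor, mitochondrial, ribosomal and unnamed genes were left out of these ranks. Alternatives were other cell limits, doublets or cells with several hashtags left out, cells with no marker of other lineages, stricter Trem2, Gpnmb and C1q limits, Trem2 also at 0 in other C1q cells, only cells of at least 3000 UMIs, C1q cells as the denominator, 24-week chow cells by hashtag, equal weight per cell, other scaling, no minimum on UMIs and thinned cells.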

Additional observations from a re-analysis of the deposited data

Results flagged for a closer look

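Arg1, the arginine-degrading enzyme, had opposite ratios of members over other C1q cells at the 2 weeks, 2.11 at 12 weeks and 0.431 at 24 weeks, and the difference was not tested. The 10% of members with the most Arg1 held 93.4% and 99.2% of its UMIs, and without cells carrying markers of other lineages the 12-week ratio was 0.733. Mmp13, a collagenase, went from 4.31 at 12 weeks to 0.311 at 24 weeks, and that difference was not tested either. It rested on 32 UMIs in 3 members at 12 weeks, 29 of them in 1 cell, and 28 UMIs in 8 members at 24 weeks, against 14 and 89 in other C1q cells.

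Cells that passed the C1q, Trem2 and Gpnmb thresholds but carried a Cd3e or Cd79a UMI numbered 92 in the 12-week MASH library and 235 in the 24-week one, against 0 and 1 in chow. Of these, 76 and 189 had Cd3e and 41 and 91 had Cd79a. They entered no comparison.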

How the results depend on the processing

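Each group was 1 library, so no replicate could be left out. No paired analysis was possible because each group had 1 sample. With C1q cells as the denominator the MASH to chow ratio of shares was 13.9 at 12 weeks (2.44 to 555) and 8.19 at 24 weeks (1.45 to 325). Where no chow member was left the ratio is at least 18.7-fold higher (12 weeks, thinned to 2000 UMIs), and at least 29.8 and 24.9 against chow hashtags 1 to 4 and 5 to 8 (24 weeks). Without the Cd3e and Cd79a limits, an alternative chosen after seeing the data, it was 207 and 288. Cells with no marker of other lineages gave 393, 507 and 180 lower genes (12 weeks, 24 weeks, between weeks). Thinned cells gave 77, 152 and 105 higher and 228, 388 and 126 lower genes, and no minimum on UMIs gave 1330, 1443 and 3372 higher and 4362, 4355 and 2358 lower. Equal weight per cell gave 391 higher genes at 24 weeks. The changes of side that follow are of gene ratios at least 2-fold from 1 and list medians at least 1 from 0. At 12 weeks the side changed for Mmp13 in single-hashtag cells (0.736), for Igfbp5 (1.87), Dcn (1.25) and Arg1 (0.733) without markers of other lineages, for Ltf thinned (0.293), and, with Trem2 also 0 in other C1q cells, for Col3a1 (3.58), Col1a1 (1.78) and the stellate median (0.84). At 24 weeks it changed in single-hashtag cells for Igfbp5 and Col3a1 (1.70 each) and Chil1 (2.55), without markers of other lineages for Pdzk1ip1 (1.74) and Krt18 (1.30), and, for Thbs1, thinned (1.11). With Trem2 also 0 it changed for Dcn (1.52), Arg1 (5.52) and Thbs1 (4.56). Between weeks it changed for Mmp13 in single-hashtag cells (3.59), the neutrophil median (2.20) and S100a8 (4.60) without markers of other lineages, Clec4f with equal weight (0.966) and the dendritic median with no minimum (0.49). Values nearer to no difference also changed side, among them, without markers of other lineages, Gzma (0.0535) and S100a8 (0.658) at 12 weeks and Spp1 (3.16) and the cell-cycle median (-0.11) at 24 weeks, and at 24 weeks Fn1 with Trem2 also 0 (2.67) and Cxcl9 thinned (1.71). The cause of these changes was not tested. Over all alternatives, 1711 of 2071 values of named gene ratios and 791 of 858 values of list medians moved by at most 1.5 times. Each chow library had 1 member, so the chow shares have wide counting intervals.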
